A study of Mus musculus with 5 samples.

Results

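Slc2a1, Hk3 and Hilpda are 3 of the 1489 mouse genes in the deposited expression table. They were taken by gene name, and each matched 1 row. RNA was sequenced from RAW264.7 cells, a mouse macrophage line that stands for a single clone, in 5 libraries. The 2 control libraries came from cells given PBS. The 2 LPS model libraries came from cells given lipopolysaccharide (LPS), a molecule from the outer membrane of Gram-negative bacteria to which macrophages respond by way of the receptor TLR4. The remaining library came from cells given LPS and compound 13, which the paper's methods name as the compound sequenced (5-chloro-6-hydroxymellein), whereas its label names no compound. The cell model of the study used 0.1 μg/ml LPS and 10 μM compound, RNA was collected after 24 h, and the doses are not restated for the sequenced cells. Cells grew in high-glucose medium in a CO2 incubator, and the methods describe no step that lowered oxygen. No source says whether replicates were separate cultures, and p-values therefore reflect the spread of these libraries alone, which may be technical.

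Glucose enters a macrophage through carriers of the SLC2 family, of which Slc2a1 encodes GLUT1. Hexokinases then phosphorylate it, which traps it in the cell and opens glycolysis, and Hk3 encodes the hexokinase found mainly in myeloid cells. Hilpda encodes a small protein of lipid droplets that inhibits adipose triglyceride lipase, the enzyme that starts the breakdown of stored fat. Slc2a1 and Hilpda are known targets of the hypoxia-inducible factors (HIF), transcription factors that low oxygen stabilises and that activated macrophages can also raise when oxygen is plentiful. Activated macrophages are known for taking up more glucose and for storing fat in droplets.

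HIF binds a short core, ACGTG or GCGTG, so the 250 bases before the RefSeq start of each gene are printed below, 5′ to 3′ on the strand of the gene, with each core on either strand in capitals (CACGT and CACGC are cores on the opposite strand). The sequences are those of RefSeq on GRCm38.p6, the build of the deposited coordinates (mm10). They are chr4:119108495-119108744 (plus strand) for Slc2a1, chr13:55021386-55021635 (minus strand) for Hk3 and chr6:29272376-29272625 (plus strand) for the second of 2 RefSeq starts of Hilpda.
Slc2a1: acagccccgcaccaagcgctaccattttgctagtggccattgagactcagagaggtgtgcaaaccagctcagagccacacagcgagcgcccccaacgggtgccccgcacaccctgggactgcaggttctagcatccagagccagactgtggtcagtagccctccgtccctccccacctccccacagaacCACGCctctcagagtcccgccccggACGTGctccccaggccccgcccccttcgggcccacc
Hk3: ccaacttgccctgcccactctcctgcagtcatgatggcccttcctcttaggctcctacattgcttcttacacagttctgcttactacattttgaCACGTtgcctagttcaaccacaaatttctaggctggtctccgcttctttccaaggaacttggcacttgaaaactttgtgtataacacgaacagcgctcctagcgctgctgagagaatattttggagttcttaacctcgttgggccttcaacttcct
Hilpda: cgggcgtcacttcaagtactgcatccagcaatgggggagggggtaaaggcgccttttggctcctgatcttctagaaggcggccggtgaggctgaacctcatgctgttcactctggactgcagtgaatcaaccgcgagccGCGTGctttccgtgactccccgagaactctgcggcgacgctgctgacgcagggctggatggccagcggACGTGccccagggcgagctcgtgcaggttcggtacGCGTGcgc
The Slc2a1 window held 2 cores, at −61 and −36 from the start, the Hk3 window held 1, at −156, and the Hilpda window held 3, at −111, −43 and −8. Over all 32851 RefSeq windows of 300 bases (250 before and 50 after a start), 43.8% held at least 1 core, 20.6% at least 2 and 8.93% at least 3. The window of the first Hilpda start (chr6:29272238-29272487) held no core before the start and 1 after it, at 27. The deposited gene begins at this first start, at 29272488, so the window printed for Hilpda lies partly inside the gene, and all 3 of its cores lie inside it. The window printed for Slc2a1 ends at 119108744 and also runs into the deposited gene, which begins at 119108711. Its core at −36 spans that position. The core of the myeloid factor PU.1, GAGGAA, was matched once in the Hk3 window, on the opposite strand, and in none of the others, against 28.3% of all windows. The NF-kB consensus was matched once, before the first Hilpda start, against 8.46% of all windows. These matches describe letters in the windows and do not show binding.

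Levels were deposited as log2 FPKM, that is fragments scaled by the exon length of the gene and the depth of the library. FPKM of low genes came in whole steps of a single read, from which the depths were recovered, at 16173000 to 17145600 reads per library, with 97.5% to 98.1% of values within 0.1 of a whole read. The genes of the table held 8.0% and 8.21% of all reads in the control libraries, 17.0% and 17.1% in the LPS model libraries and 16.8% in that of compound 13. The rule by which the table's genes were chosen is not given, and 1012 of the 1053 genes tested differed between LPS model and control, so counts of genes describe this selection. Of 11 macrophage markers 3 are in the table. Cd14 stood at 685 and 732 FPKM in control libraries, 1360 and 1331 in LPS model libraries and 1396 with compound 13, and Itgam at 11.2 and 9.96, 35.3 and 35.4, and 35.2. Fcgr1 stood at 14.4 and 16.6, 13.5 and 14.1, and 10.02 FPKM, so not all of them moved one way. Of 6 neutrophil markers 1 is in the table, S100a8, at 0.870 and 2.86 FPKM in control libraries, 333 and 333 in LPS model libraries and 272 with compound 13. It moved with LPS like the 3 genes, and its part in their values was not tested. Of 8 epithelial markers 3 are in the table, the keratins Krt8, Krt18 and Krt19. They had 0 reads in the control and with compound 13, and a summed FPKM of 19.6 and 12.5 in the LPS model. Of 8 fibroblast markers, Sparc and Col3a1 are in the table and went the same way, at a sum of 3.49 and 2.27 in the LPS model and at most 0.016 elsewhere. The part of the keratin and fibroblast signal in the values of the 3 genes was not tested. Of 4 endothelial markers 2 are in the table, Cdh5 and Kdr, at a sum of at most 0.397 in any library, and none of the T cell or B cell markers is in the table. In RNA of whole cultures, fewer cells of a type and less RNA per cell cannot be told apart.

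With LPS, all 3 genes were higher than in the control. The transcript of the glucose carrier rose 2.40-fold, that of the hexokinase 3.20-fold and that of the lipid droplet protein 6.06-fold in mean FPKM. With compound 13 added, all 3 stayed far above the control, and none differed from the LPS model at an adjusted p under 0.05. The keratins were at 0 in the library with compound 13, and in that library the 3 genes stood at 90.8, 104 and 49.9 FPKM.

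**Figure D1:**
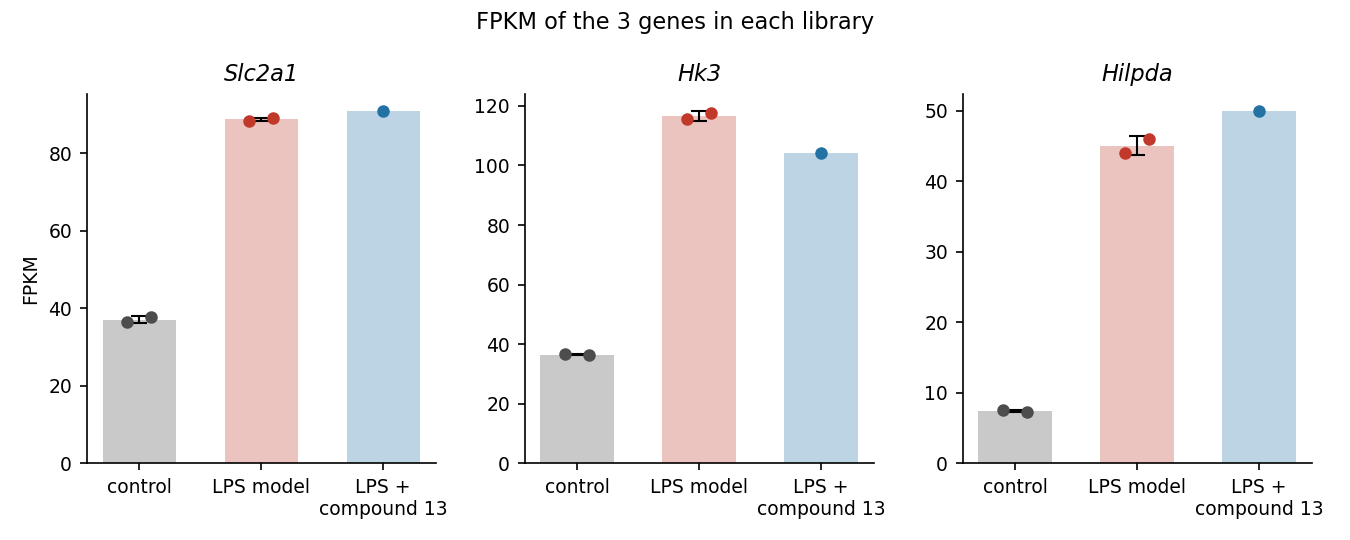
FPKM (vertical axis, linear from 0) of Slc2a1, Hk3 and Hilpda by group. Points are libraries, bars are group means and error bars are the SD of the 2 replicates, with none for the 1 library of compound 13. Both LPS model libraries lie above both control libraries in each panel, and the library with compound 13 lies at 90.8, 104 and 49.9 FPKM.

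Slc2a1 (ENSMUSG00000028645) is a protein-coding gene on the plus strand of chromosome 4, from 119108711 to 119137983. Its FPKM was 36.5 and 37.6 in the control libraries (2118 and 2255 reads), 88.4 and 89.0 in the LPS model (5143 and 5047 reads) and 90.8 with compound 13 (5460 reads). The LPS model libraries were both far above the control libraries, and the library with compound 13 was just above both of them. Group means were 37.0 ± 0.805 FPKM for the control (SD, n = 2) and 88.7 ± 0.427 FPKM for the LPS model (SD, n = 2). Tested by limma on log2(FPKM + 1), where fold changes of low genes are understated, the log2 fold change with LPS was 1.24 (standard error 0.04, 95% interval 1.14 to 1.34, adjusted p = 4.06e-06 from limma). The ratio of reads per library depth was 2.39, with an exact 95% interval of 2.31 to 2.48 that covers counting error only, as do the intervals of reads that follow. The rise of Slc2a1 was 0.28 above the median log2 fold change of all tested genes, 0.96, and 66.3% of tested genes had a lower value. This distance depends on the pseudocount. With a pseudocount of 0.1 Slc2a1 stood at 1.26 beside a median of 1.18. By limma-voom on recovered reads it stood at 1.26 beside 1.21. Rescaling by the median of ratios or quantile normalization, both of which assume that about as many of these genes rise as fall, moved the median of all genes to 0.00 and 0.16. Under them the log2 fold change of Slc2a1 was 0.046 and 0.047 and was not called (adjusted p = 0.315 and 0.214 from limma). The call of a rise of Slc2a1 therefore holds for the deposited FPKM and not relative to the bulk of the listed genes.

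Hk3 (ENSMUSG00000025877), also protein-coding, lies on the minus strand of chromosome 13, from 55005985 to 55021385. Its FPKM was 36.6 and 36.3 in the control libraries (2234 and 2288 reads), 116 and 118 in the LPS model (7058 and 7015 reads) and 104 with compound 13 (6575 reads). The groups did not overlap, and the library with compound 13 lay between the control and the LPS model, nearer the latter. Group means were 36.5 ± 0.208 FPKM for the control (SD, n = 2) and 117 ± 1.61 FPKM for the LPS model (SD, n = 2). The log2 fold change with LPS was 1.65 (standard error 0.04, 95% interval 1.56 to 1.74, adjusted p = 2.16e-06 from limma). Its ratio of reads was 3.20 (3.09 to 3.31). The log2 fold change of Hk3 was 0.69 above the median of all tested genes, and 80.3% of them had a lower value. By limma-voom it was 1.68 beside a median of 1.21. After the rescalings the log2 fold change was 0.46 and 0.49, still called. Of the 5 hexokinase genes listed, Hk3 is the 1 in the table, and the others were not analysed here.

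Hilpda (ENSMUSG00000043421), protein-coding, lies on the plus strand of chromosome 6, from 29272488 to 29275446. It was the least abundant of the 3, with an FPKM of 7.55 and 7.31 in the control libraries (138 reads in each library), 44.0 and 46.0 in the LPS model (806 and 821 reads) and 49.9 with compound 13 (944 reads). The control libraries were far below the rest, and the library with compound 13 was the highest of the 5. Group means were 7.43 ± 0.168 FPKM for the control (SD, n = 2) and 45.0 ± 1.404 FPKM for the LPS model (SD, n = 2). The log2 fold change with LPS was 2.45 (standard error 0.05, 95% interval 2.32 to 2.57, adjusted p = 1.84e-06 from limma). The ratio of reads was 6.06, and with fewer reads its counting interval was wider, 5.33 to 6.91. The rise was 1.49 above the median of all genes and ranked 73 of 1053, and after the rescalings it was 1.31 and 1.60, both called. By limma-voom it was 2.59 beside a median of 1.21.

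All 3 genes were thus called higher with LPS, against 72.7% of all genes tested, and in all 3 both LPS model libraries were above both control libraries, against 73.7% of all genes tested. A count of 3 of 3 is therefore close to what this table gives for most of its genes. Replicates lay close together for the 3 genes, but no comparison with genes of like level was made. The absolute log2 difference between the control replicates was 0.01 to 0.04, against a median of 0.08 over all tested genes, and that between the LPS model replicates 0.01 to 0.06, against 0.07.

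Levels of the 3 genes were compared per length of exon, in FPKM. In the control Slc2a1 and Hk3 could not be ranked, since the ratio of Hk3 to Slc2a1 was 1.00 in 1 library and 0.966 in the other, and Hilpda was lowest. In the LPS model the ratio of Hk3 to Slc2a1 was 1.31 and 1.32, and with compound 13 it was 1.15, so that Hk3 was highest, Slc2a1 next and Hilpda lowest in these 3 libraries. The ratio of Slc2a1 to Hilpda went from 4.83 and 5.14 in control libraries to 2.01 and 1.93 in LPS model libraries and 1.82 with compound 13. Both ratios are taken within a library, so no scaling between libraries enters them.

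Compound 13 was compared with the LPS model to ask whether it changed the response to LPS. For Slc2a1 the difference in FPKM from the LPS model mean was 2.39%, with the library of compound 13 the higher, a log2 fold change of 0.034 (standard error 0.05, 95% interval −0.09 to 0.15, adjusted p = 0.698 from limma). The ratio of reads was 1.02 (0.991 to 1.06), an interval that includes 1. As a fold, the interval of the fit reaches from 0.943 to 1.11 for the deposited FPKM. It does not cover the choice of scaling. The log2 fold change was 0.20 after the median of ratios, above the interval, and 0.14 after quantile normalization.

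For Hk3 the difference in FPKM from the LPS model mean was −10.7%, and the library with compound 13 lay below both LPS model libraries. The log2 fold change was −0.16 (standard error 0.04, 95% interval −0.27 to −0.05), which missed the threshold after adjustment over all genes (adjusted p = 0.0938 from limma). The ratio of reads was 0.893 (0.867 to 0.919), so the difference between these libraries was larger than counting error. It was called in a fit of the LPS model and compound 13 libraries alone (adjusted p = 0.0472 from limma) and by limma-voom on recovered reads (adjusted p = 0.033), and went to 0.0058 after rescaling by the median of ratios (adjusted p = 0.963 from limma). The median of all tested genes in this comparison was −0.08.

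For Hilpda the difference in FPKM from the LPS model mean was 10.9%, and the library with compound 13 lay above both LPS model libraries. The log2 fold change was 0.15 (standard error 0.06, 95% interval −0.01 to 0.30, adjusted p = 0.209 from limma). Counted in reads, the ratio was 1.11 (1.02 to 1.20). Rescaled by the median of ratios and by quantile normalization, the log2 fold change of Hilpda was 0.31 and 0.20. Of all tested genes 91.5% had a lower log2 fold change in this comparison, 78.1% had one lower than Slc2a1 and 32.8% one lower than Hk3. None of the 3 genes was called, where 7.6% of all genes tested were called in either direction (4 higher and 76 lower). The compound 13 group is 1 library, assumed in the fit to vary like the others, so a difference between it and the LPS model has no replicate of its own.

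**Figure D2:**
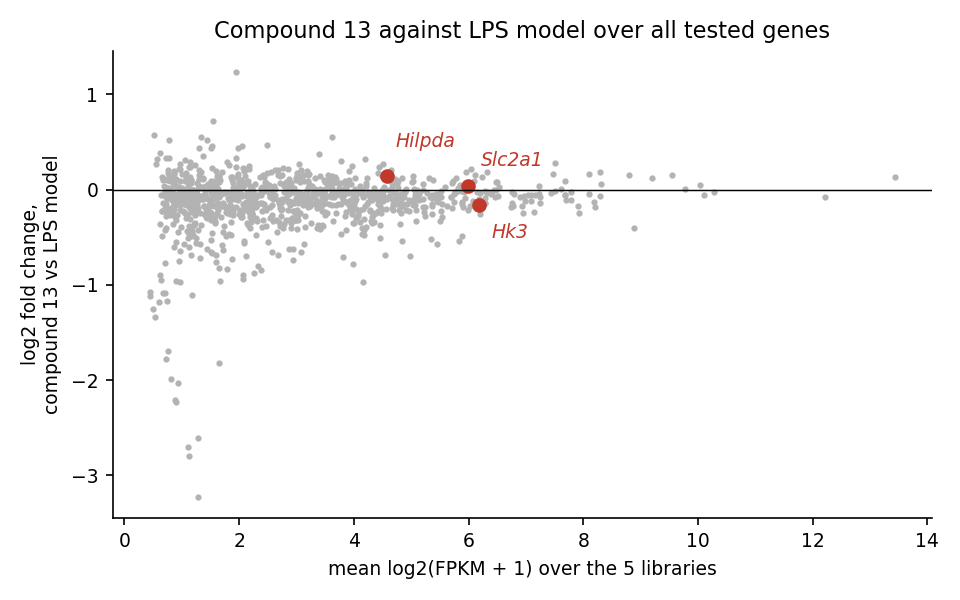
Log2 fold change of compound 13 against the LPS model (vertical axis) over mean log2(FPKM + 1) of the 5 libraries (horizontal axis), 1 point for each of the 1053 tested genes. Slc2a1, Hk3 and Hilpda, in red, lie within the cloud of genes of like level, at 0.034, −0.16 and 0.15.

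Against the control, the cells given LPS and compound 13 had higher levels of all 3 genes, where 68.1% of all genes tested were called higher. The log2 fold change of Slc2a1 was 1.27 (adjusted p = 1.26e-05 from limma, standard error 0.05). That of Hk3 was 1.49 (adjusted p = 8.43e-06 from limma, standard error 0.04), and that of Hilpda was 2.59 (adjusted p = 5.62e-06 from limma, standard error 0.06). In mean FPKM these were 2.45-fold, 2.86-fold and 6.72-fold, beside a median over all genes of 0.82 on the log2 scale. By limma-voom the 3 log2 fold changes were 1.29, 1.51 and 2.74, beside a median of 1.07. After the median of ratios and quantile normalization the log2 fold changes were 0.25 and 0.18 for Slc2a1, 0.46 and 0.37 for Hk3 and 1.62 and 1.80 for Hilpda, all called. The 3 comparisons share libraries, so these values are not independent of those above.

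As a description, the rise over the control mean that remained with compound 13 was set against the rise in the LPS model. It was 104% for Slc2a1 (103% to 105% over the choices of 1 control and 1 LPS model library), 84.4% for Hk3 (83.2% to 85.6%) and 113% for Hilpda (110% to 116%). Over the 766 genes called higher with LPS the median was 86.5%, with quartiles of 70.5% and 97.1%, and 163 of them (21.3%) were above 100%. Hk3 was thus near the median of these genes, and Slc2a1 and Hilpda were above the upper quartile. These shares all use the same control, LPS model and compound 13 libraries.

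**Figure D3:**
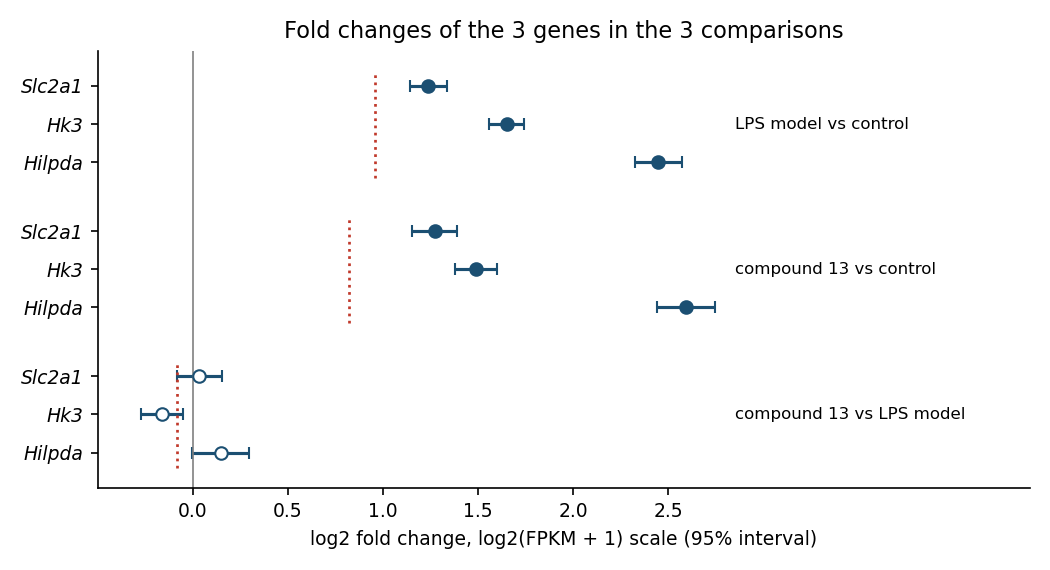
Log2 fold change (horizontal axis, log2(FPKM + 1) scale) of each gene in the 3 comparisons, with 95% intervals of the fit. Filled points passed an adjusted p under 0.05 and open points did not, and the dotted line is the median of all 1053 tested genes. With LPS and with compound 13 against the control the 3 genes lie to the right of that median, and against the LPS model their points lie from −0.16 to 0.15.

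The pathway around these genes was read from 9 lists of 172 other genes of glucose and fat handling and of HIF, of which 21 are in the table and 18 were tested. With LPS 15 of the 18 were called higher and 2 lower. Of all 1053 genes tested, 766 (72.7%) were called higher and 246 lower. The median log2 fold change of the 18 was 1.14 beside 0.96 over all tested genes, and 1.32 beside 1.21 by limma-voom. Under the median of ratios 9 of the 18 were called higher and 5 lower, and under quantile normalization 7 and 5. Over all 1053 genes these counts were 408 and 408, and 463 and 346. With compound 13, 0 were higher and 1 was lower than in the LPS model by limma (4 at an unadjusted p under 0.05, and 3 lower by limma-voom), with a median of −0.06 beside −0.08. Of all 1053 genes tested by limma, 4 were called higher and 76 lower, and 264 had an unadjusted p under 0.05. By limma-voom 154 of 1051 genes were called lower.

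Of the 14 transporters of glucose and monocarboxylates, 4 are in the table. Next to Slc2a1 the lactate exporter gene Slc16a3 rose, from 35.8 and 37.7 FPKM in control libraries to 70.4 and 69.6 in LPS model libraries, and stood at 68.7 with compound 13. Its log2 fold change with LPS was 0.91 (adjusted p = 1.54e-05 from limma), but −0.28 and −0.17 after the rescalings, called lower in both. The ratio of Slc2a1 to Slc16a3 within a library was 1.02 and 0.998 for the control, 1.26 and 1.28 for the LPS model and 1.32 for compound 13, so Slc2a1 rose more. Slc16a7, another monocarboxylate carrier gene, fell by 0.64 on the log2 scale (adjusted p = 0.00114 from limma), from 2.101 and 1.80 FPKM to 0.932 and 0.857. The fructose carrier gene Slc2a5 was not tested, with 7 and 9 reads in LPS model libraries and 0 elsewhere.

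Of the 22 genes of glycolysis below hexokinase, 2 were tested. Pfkfb3, whose product makes the activator of phosphofructokinase, rose from 3.87 and 4.13 FPKM to 8.04 and 8.13, a log2 fold change of 0.86 (adjusted p = 7.03e-05 from limma). The muscle enolase gene Eno3 fell by 1.06 on the log2 scale (adjusted p = 0.000272 from limma), from 15.1 and 16.3 FPKM to 6.24 and 7.79. Both genes of glycogen handling that were tested, of 13 listed, were called higher with LPS, as were 72.7% of all genes tested. The branching enzyme gene Gbe1 and the phosphoglucomutase gene Pgm2 rose by 0.85 each. For Pfkfb3, Gbe1 and Pgm2 and for Egln3 and Ak4, described next, the calls of a rise were lost after both rescalings. Under the median of ratios Pfkfb3, Gbe1 and Ak4 had values of −0.17, −0.20 and −0.14, and Pgm2, at −0.31, was called lower. The 8 genes of the pentose phosphate pathway and the 30 of pyruvate use and the citric acid cycle are not in the table and were not analysed here.

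Of 13 genes of HIF subunits and regulators, the 1 in the table was Egln3, an oxygen-sensing hydroxylase that marks HIF for destruction and is itself a HIF target. Its reads numbered 32 and 33 in control libraries, 87 and 70 in LPS model libraries and 81 with compound 13, a log2 fold change with LPS of 0.69 (adjusted p = 0.000909 from limma). HIF targets outside glycolysis numbered 39, Hilpda among them. Of the 8 others tested 7 were called higher with LPS, where 72.7% of all genes tested were. Their median log2 fold change was 1.92 beside 0.96 over all tested genes, and 2.14 beside 1.21 by limma-voom. Nos2, the inducible nitric oxide synthase, rose from 0 and 2 reads to 24.5 and 22.7 FPKM (1796 and 1617 reads). The heme oxygenase gene Hmox1 rose from 127 and 135 to 569 and 574 FPKM. The vessel growth factor gene Vegfa rose from 2.51 and 2.46 to 11.1 and 11.0 FPKM, and Edn1, which encodes endothelin 1, rose from 4 and 6 reads to 128 and 131. Ak4, a mitochondrial adenylate kinase gene, rose by 0.96 on the log2 scale. The carbonic anhydrase gene Car12 had a log2 fold change of −0.14 (adjusted p = 0.073 from limma) and P4ha2, a collagen hydroxylase gene with 30 and 8 reads in LPS model libraries, 2 with compound 13 and 0 in the control, was not tested. After the rescalings 5 of the 8 were called higher and 1 lower in both. Of all 1053 genes tested, 408 and 463 were called higher and 408 and 346 lower.

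With compound 13 none of these 8 was called against the LPS model by limma (2 lower by limma-voom, where 154 of 1051 genes tested were). Vegfa had a log2 fold change of −0.32 (adjusted p = 0.0704 from limma) and Edn1 of −0.38 (adjusted p = 0.0828 from limma), beside 0.15 for Hilpda. In FPKM Vegfa stood at 8.66 and Edn1 at 2.62 with compound 13, each below both LPS model libraries, whereas Hilpda was above both. Hmox1, Nos2, Ak4 and Car12 were also below both, at 544, 21.4, 12.99 and 5.70 FPKM, and Egln3 lay between them. How many of all tested genes lay below both LPS model libraries was not counted. After the median of ratios Hmox1, Nos2, Ak4 and Car12 had log2 fold changes of 0.099, 0.031, 0.10 and 0.11. Those of Vegfa and Edn1 were −0.16 and −0.23, and that of Hilpda was 0.31, none of them called. Of the 18 listed genes tested besides the 3, 17 had a log2 fold change below 0. The median over all tested genes was −0.08. After the median of ratios the median of the 18 was 0.093, beside 0.045 over all tested genes.

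Of 35 genes of lipid droplets and triglyceride, 5 were tested, Hilpda among them. The other 4 were also called higher with LPS, where 72.7% of all genes tested were. Plin2, which encodes a major droplet coat protein, rose from 39.7 and 37.5 to 99.7 and 96.3 FPKM (not called after quantile normalization) and stood at 89.9 with compound 13. The ratio of Plin2 to Hilpda within a library was 5.25 and 5.13 for the control, 2.26 and 2.09 for the LPS model and 1.80 for compound 13, so Hilpda rose more than the coat protein gene. The fatty acid binding protein genes Fabp4 and Fabp5 rose by 1.93 and 1.49 on the log2 scale, and the fatty acid receptor gene Cd36 by 1.38. Cd36 was the 1 listed gene lower with compound 13, at 181 FPKM against 210 and 219 in LPS model libraries, with a log2 fold change of −0.24 (adjusted p = 0.0466 from limma, standard error 0.04). That call was lost after both rescalings, and with LPS Cd36 was called lower after quantile normalization. Gpat3, an enzyme gene of triglyceride synthesis, was not tested, with 5 and 6 reads in control libraries and 43 and 40 in LPS model libraries.

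**Figure D4:**
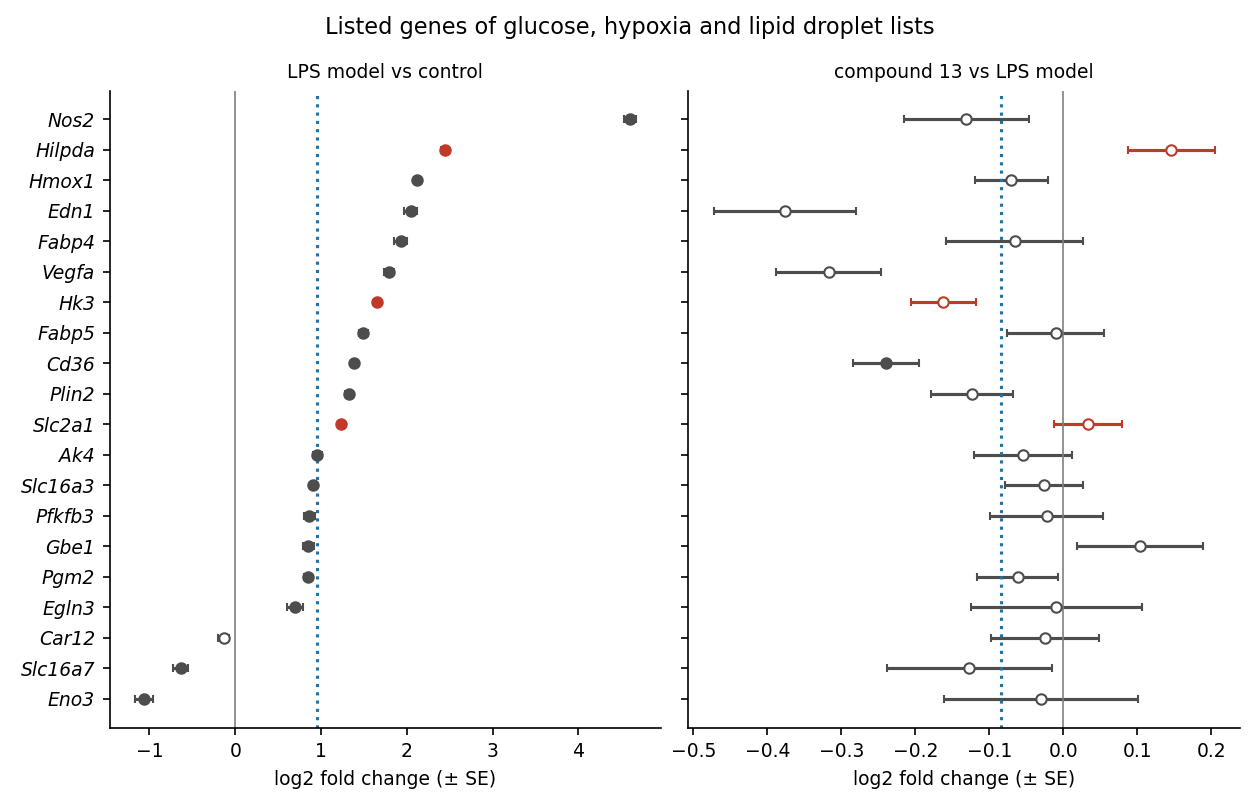
Log2 fold change ± standard error of the 3 genes (red) and 17 of the 18 other tested genes of the lists (grey), LPS model against control on the left and compound 13 against LPS model on the right, on separate horizontal scales. Filled points passed an adjusted p under 0.05, and the dotted line is the median of all tested genes. Of all genes tested, 72.7% were called higher with LPS. On the left 17 of the 20 points are filled and to the right of 0, and on the right Cd36 alone is filled.

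Genes with the pattern most like each of the 3 were found as the 4 with the smallest Euclidean distance of log2(FPKM + 1) over the 5 libraries, each gene centred on its mean. For Slc2a1 these were Por (distance 0.042), the electron donor of cytochrome P450, Litaf (0.071), Slc11a2 (0.074), an iron transporter gene, and Spp1 (0.091), which encodes osteopontin. Por stood at 54.3 and 54.8 FPKM in control libraries, 128 and 127 in LPS model libraries and 129.8 with compound 13. For Hk3 they were Dcstamp (0.064), which encodes a cell fusion protein, Bcar3 (0.066), Oas1a (0.073), an antiviral synthase gene, and Dusp4 (0.077), a phosphatase gene. Dcstamp stood at 18.6 and 18.0, 58.3 and 57.8, and 51.0 FPKM. For Hilpda they were Slc31a2 (0.101), a copper carrier gene, Layn (0.119), Prdx1 (0.157), which encodes an antioxidant enzyme, and Egr1 (0.166), a transcription factor gene. Slc31a2 stood at 12.6 and 12.0, 67.6 and 75.1, and 74.3 FPKM.

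The 3 genes were not each other's nearest. Hk3 ranked 281 and Hilpda 710 among all tested genes in distance from Slc2a1 (0.415 and 1.37, with a median of 0.742 over all genes). From Hk3, Slc2a1 ranked 171 and Hilpda 588, the latter at 1.02 (median 0.907). From Hilpda, Hk3 ranked 149 and Slc2a1 276, both nearer than its median over all genes of 1.79. The cellular component and molecular function terms of the table held 0 terms carried by all 3 and 1 carried by 2 genes, cytosol, which Slc2a1 and Hk3 shared.

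**Figure D5:**
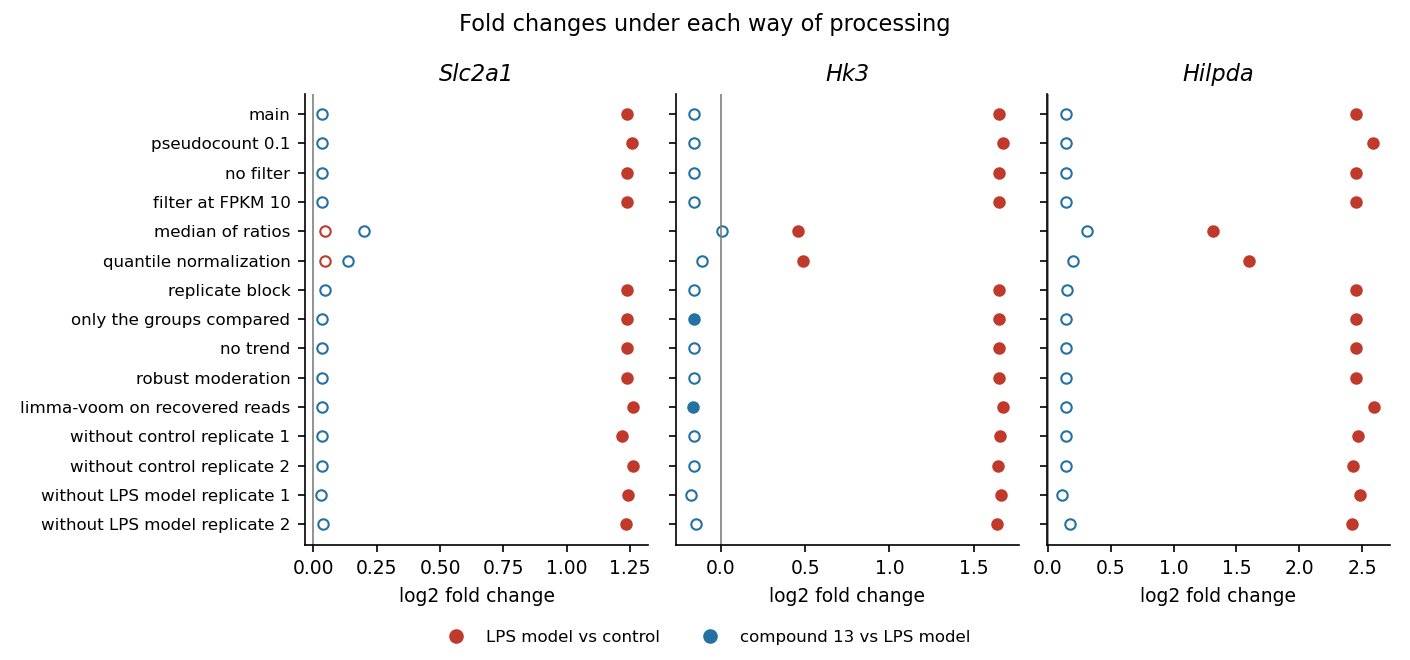
Log2 fold change (horizontal axis, a separate scale in each panel) of the 3 genes under the main test and 14 other ways of processing (vertical axis), for LPS model against control in red and compound 13 against LPS model in blue. Filled points passed an adjusted p under 0.05. The red points of Slc2a1 are open under the median of ratios and quantile normalization, and the blue points of Hk3 are filled in 2 settings.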

How the data were processed

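RNA of RAW264.7 cells was sequenced from strand-specific libraries (KAPA kit) on an Illumina HiSeq. Libraries were grouped by their treatment labels. The deposited table gives log2 FPKM, computed by the authors, for 1489 genes, and an exact 0 was read as no read counted. Of tools, the submitters' notes on processing list HISAT2 2.1.0, Trimmomatic 0.32, DESeq2 and SAMtools 1.4, with the build mm10. Not given in the sources used here are the counter, the annotation, the use of strand in counting and the selection of genes, so overlapping genes may share reads.

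Python 3.11.15 (pandas 2.3.3, numpy 2.4.6, matplotlib 3.10.9, scipy 1.17.1) and limma 3.58.1 in R 4.3.3 were used. Limma with a trend was fitted to log2(FPKM + 1) of 5 libraries in 3 groups, over 1053 genes with an FPKM of at least 1 in 2 libraries or in that of compound 13, which all 3 genes passed. This left 2 residual degrees of freedom. The threshold for a call was an adjusted p (Benjamini-Hochberg) of 0.05. Depths and reads were recovered with exon lengths of GENCODE M21, in which 1487 of the identifiers are found. Read ratios have exact (Clopper-Pearson) 95% intervals. The fit was tested on simulated data.

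The genes, lists and tests were chosen with earlier results of these data known. Named genes are the 3 genes, every listed gene in the table and the 4 nearest genes of each. Some listed genes are not reported here by name. Alternatives were another pseudocount, other filters, rescaling, a replicate block, other moderation, limma-voom and leaving out each replicate. The mean chi-square of reads between replicates was 3.83 for the control and 2.35 for the LPS model, and the median 0.925 and 0.869, where sampling noise alone gives a mean of 1 and a median of 0.455, so they were counted as separate libraries. For the 3 genes it was 0.0703 to 1.34.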

Additional observations from a re-analysis of the deposited data

How the results depend on the processing

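Of 126 values of the 3 genes (9 results under 14 settings), 121 kept their direction and side of the threshold. The exceptions were 2 calls of Slc2a1 with LPS, lost at a log2 fold change of 0.046 after rescaling by the median of ratios (adjusted p = 0.315 from limma) and 0.047 after quantile normalization (adjusted p = 0.214 from limma), and 3 values of Hk3 with compound 13 against the LPS model. Hk3 reversed to 0.0058 after the median of ratios and was called at −0.16 with only the groups compared (adjusted p = 0.0472 from limma) and at −0.16 by limma-voom on recovered reads (adjusted p = 0.033). Over its 14 settings its adjusted p ran from 0.033 to 0.963. Both rescalings assume balanced change among the listed genes, and this alone moves the median of all genes by construction. Calls split into 408 higher and 408 lower with LPS after the median of ratios and into 463 and 346 after quantile normalization, beside 766 and 246.

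With a filter at an FPKM of 10, fewer genes were tested, and 484 were called with LPS (1012 in the main test) and 483 with compound 13 against the control (969). Compound 13 against the LPS model gave 80 calls in the main test. It gave 35 with a pseudocount of 0.1, 15 with the filter at 10, 8 after quantile normalization, 141 with only the groups compared and 166 by limma-voom. After the median of ratios limma called 0 genes, with 231 at an unadjusted p under 0.05. Leaving out 1 library gave 17 to 139 calls (17 and 22 without LPS model replicates 1 and 2, 139 and 137 without control replicates 1 and 2), and the cause was not tested. Where a group was left with 1 library it is assumed to vary like the others. For Hk3 with compound 13 these fits gave −0.18 to −0.15.

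Replicate numbers are shared by the control and the LPS model, but with 2 pairs and a correlation of deviations of −0.022 over 1053 genes they do not pair the libraries. A replicate block gave 52 calls for compound 13 against the LPS model, and log2 fold changes with LPS of 1.24, 1.65 and 2.45 for Slc2a1, Hk3 and Hilpda, all called. Tests that need deposited counts (edgeR or DESeq2) were not run. Depth limits Hilpda most, with 138 reads in each control library.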
